A study of Limonium bicolor with 5 samples.

Results

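Rab GTPases and the proteins of vesicle coats were represented by 146 of the 18327 genes measured in developing leaves of Limonium bicolor, a plant that secretes salt through glands on its leaves. A gene was a member when the description of its paired Arabidopsis locus named a Rab GTPase, Rab as a word, a RAB homolog, clathrin, coatomer, adaptin, dynamin, an ADP-ribosylation factor, Sec23 or Sec24, and named no syntaxin, SNARE or exocyst protein. No measured value entered this rule, though it was set with earlier results of these data known. By role the members were 47 Rab GTPases, 32 Rab regulators, 15 ADP-ribosylation factors (ARFs) and ARF-like proteins, 10 subunits of coatomer, 9 Sec23/Sec24 proteins, 5 clathrin chains, 17 adaptins and other adaptor subunits, and 10 dynamins. The remaining member, described as RAB GTPase homolog E1B (AT4G20360), is known in Arabidopsis as a plastid elongation factor Tu, a protein of translation, and is given on its own. One protein described as a clathrin adaptor medium subunit (AT5G05010) is known in Arabidopsis as the delta subunit of coatomer and was counted there.

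Poly(A) RNA came from first true leaves grown in tissue culture. The 5 groups were 5 stages of development without any difference in genotype or treatment given: undifferentiated leaves (stage A), leaves in which salt glands had differentiated (stage B), then stomata (stage C), then the epidermis (stage D), and mature leaves (stage E). Each stage was 1 library made from pooled leaves, which numbered about 5000, 4000, 2000, 1000 and 1000 in stages A to E. The labels describe 2 sequencing lanes per stage as biological replicates. The table holds 1 column per stage, called 1 library here, which may combine both lanes, so no spread between replicates was known and no p-value was computed.

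Rab GTPases are molecular switches. In their GTP form they sit on a particular membrane and recruit the proteins that move, tether and fuse vesicles; guanine dissociation inhibitors, prenylating enzymes and GTPase-activating proteins (Rab-GAPs) recycle, anchor and switch them off. ARFs recruit coats that bend the membrane into a vesicle: coatomer (COPI) on the way back from the Golgi to the endoplasmic reticulum, and clathrin with its adaptors at the trans-Golgi network and plasma membrane, while Sec23 and Sec24 form the inner COPII coat on vesicles leaving the endoplasmic reticulum. Dynamins constrict and sever membrane, and in plants several also act on the cell plate that divides daughter cells.

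Levels are in RPM, reads scaled to the total of their library and not divided by gene length, so a gene was compared with itself between stages and not with other genes. In stages A to E the values rested on 5939374, 16556653, 14286009, 16367754 and 12945184 reads. A floor of 3 reads came to 0.505 RPM for stage A and to 0.181 to 0.232 RPM elsewhere. A member was called higher or lower in the later of a pair of stages when log2(RPM + 1) differed by at least 1 and the higher stage reached 5 RPM. The verbs rose and fell are used of such calls alone. Folds are ratios of RPM, with the exact 95% counting interval from the reads in parentheses; intervals and floors cover counting error only. Reads of near-identical paralogs could have been split between loci, so single members of these families are uncertain. In whole leaves, fewer cells of a type and less RNA per cell cannot be told apart.

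The stage C library stood apart from the other 4 in a way tied to the paired locus. Loci on Arabidopsis chromosome 1 took 40.4% of its reads, against 24.4% to 28.3% in the other stages, and chromosome 5 loci took 15.1%, against 22% to 25% elsewhere. Counts and class sums that rest on stage C are therefore also given without the 30 members on chromosome 1, or without stage C, where this turned a direction or moved them far; levels of single genes in stage C are given as they stand. The leaf identity of the samples was visible in 19 light-harvesting genes, which summed to between 2737 RPM (stage A) and 41373 RPM (stage C) and of which 0 were at 0 reads in any stage. Markers of guard cells (4 genes), xylem (4 genes), phloem (1 gene) and the shoot meristem (2 genes) summed to between 42.6 and 104, 107 and 392, 10.6 and 147, and 0.183 and 14.8 RPM. Those of guard cells stood at 70.9, 42.6, 55.6, 56.1 and 104 RPM in stages A to E, lower in stage C than in stage A. Median-of-ratios scaling, an alternative to division by total reads, moved the median log2 difference of all genes from -0.29 to 0.01 for stage D against stage B and from 0.28 to 0.00 for stage E against stage D.

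Between stages A and B, when salt glands appeared, few members moved. In stage B against stage A, 6 of the 146 members rose and 3 fell, where 7.47% of all 18165 genes tested rose and 3.1% fell. After scaling 4 members rose and 5 fell, beside 5.36% and 4.39% of all genes. The median log2 difference was 0.01 over the members and 0.10 over all genes. Of the 6 that rose, 4 were Rab GTPases of class A, and the others were RAB GTPase homolog E1B and ARF A1E.

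Stage C was where the members moved most. In stage C against stage B, 35 members rose and 35 fell, beside 15.3% and 23% of all genes, and scaling gave 41 and 23, beside 19.6% and 16.5%. Without chromosome 1 loci, 21 of 116 members rose and 33 fell, beside 11.3% and 26.9% of the other genes. In stage D against stage C, 16 members rose and 49 fell, beside 17.4% and 19.5% of all genes, and scaling gave 18 and 46, beside 19.3% and 18.7%. Without chromosome 1 loci 16 rose and 30 fell, beside 20.4% and 15.3%. The same stage C library enters both comparisons.

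Stages on either side of stage C differed less. In stage D against stage B, 0 members rose and 12 fell, beside 10.5% and 19.5% of all genes. Scaling left 2 that fell and gave 4 that rose, beside 11.5% and 15.3% of all genes. By the count-based call, in which the whole interval must lie at 2-fold or more, 0 rose and 8 fell, beside 10.6% and 17.1%. In stage E against stage D, 17 members rose and 2 fell, beside 13.1% and 6.65% of all genes, and after scaling 6 rose and 3 fell, beside 6.13% and 10.2%. The count-based call gave 10 and 1, beside 10.2% and 6.29%, and without chromosome 1 loci 15 rose and 1 fell, beside 13.3% and 6.55%. Over the whole course, stage E against stage A, 13 members rose and 6 fell, beside 18.6% and 13.7% of all genes. Scaled values gave 9 and 7, beside 16.5% and 15.6%. The median log2 difference for stage E against stage A was 0.00 over the members and 0.09 over all genes.

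The role classes had different courses. Rab GTPases summed to 1565, 1946, 2444, 1677 and 2069 RPM in stages A to E, and 2069 RPM in stage E against 1565 RPM in stage A was a ratio of 1.32 (1.29 to 1.35). COPI coatomer summed to 4023, 3300.4, 3489, 2072 and 2843 RPM, so that stage E stood 1.41-fold lower than stage A (1.39 to 1.44). Without its 3 chromosome 1 loci coatomer summed to 2912, 2280.0, 1444, 1421 and 1905 RPM, which turned the direction of stage C against stage B. Clathrin chains summed to 1947, 1634, 1289, 959.8 and 1235 RPM, and dynamins to 1801, 1612, 1459, 878 and 1110.4 RPM. These sums were 1.58-fold lower (1.54 to 1.61) for clathrin and 1.62-fold lower (1.58 to 1.66) for dynamins in stage E than in stage A. Sec23/Sec24 proteins summed to 1217, 1004, 624, 618 and 1086 RPM, lowest in stages C and D and 1.12-fold lower in stage E than in stage A (1.09 to 1.15). Rab regulators followed a like course, at 1586, 1292, 914, 910.4 and 1592 RPM.

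**Figure D1:**
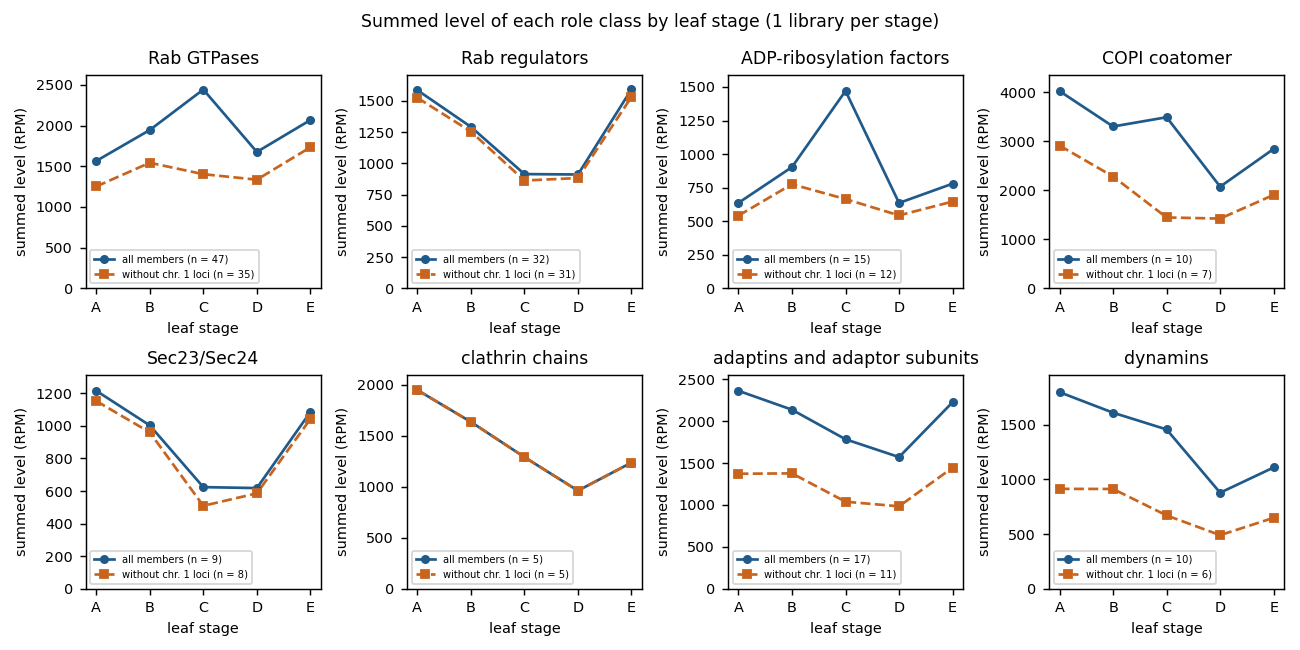
Summed level (RPM, vertical axis from 0) of 8 role classes in leaf stages A to E, with 1 library per stage; solid lines with circles show all members and dashed lines with squares leave out Arabidopsis chromosome 1 loci. The stage C peaks of the Rab GTPases (2444 RPM) and ARFs (1471 RPM) are absent without chromosome 1 loci (1403 and 665 RPM), though after scaling the ARF sum without these loci was still highest in stage C (730.2), while the decline of clathrin chains, none of which is on chromosome 1, stands as it was.

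Among the Rab GTPases, class A, the Rab11-like class that in Arabidopsis works at the trans-Golgi network, in recycling and at the cell plate, is the largest with 23 members. It summed to 288, 546, 1059.8, 463 and 472 RPM in stages A to E, and to 210.3, 423, 479, 342 and 349.6 RPM without its 8 chromosome 1 loci. Of the 23 members, 4 rose in stage B against stage A and 0 fell, beside 7.47% and 3.1% of all genes. The 4 were A1C, A1D, A4A and A5E, of which A4A was not called after scaling.

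RAB GTPase homolog A1D (AT4G18800) stood at 23.1, 78.9, 35.4, 31.4 and 51.1 RPM in stages A to E, highest where salt glands had differentiated. Its stage B level was 3.42-fold that of stage A (2.87 to 4.11), and it fell again by 2.51-fold (2.27 to 2.79) in stage D against stage B. A1C (AT5G45750) was also highest in stage B, at 21.9, 67.2, 24.7, 31.6 and 38.7 RPM, a rise of 3.07-fold (2.56 to 3.71) in stage B. A5E (AT1G05810) had 8.59, 31.2, 146.9, 46.3 and 35.5 RPM and kept a higher level in stage E than in stage A, at 4.13-fold (3.09 to 5.63). The stage D falls of A1D and A1C were not called after scaling.

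The levels of class A genes drew together in stage C. In stages A, B, D and E between 7 and 9 of the 23 genes lay under 5 RPM, whereas in stage C 0 did. The lowest of the 23 stood at 0, 0, 19.1, 0 and 0 RPM in stages A to E. Their medians were 12, 21.0, 32.3, 12.3 and 13.5 RPM, and the highest stood at 40.6, 78.9, 179, 90.8 and 66.7 RPM. The standard deviation of log2(RPM + 1) across the 23 genes was 0.79 in stage C, where it was smallest, and 1.77 to 2.23 elsewhere. Over the 15 class A genes outside chromosome 1 it was 0.43 in stage C and 1.65 to 2.10 elsewhere, so the narrowing was also present without chromosome 1 loci. Over all genes tested it was 2.19 in stage C and 2.20 to 2.31 elsewhere. The narrowing was not particular to class A. Over all 15 ARFs the standard deviation was 1.80 in stage C and 2.35 to 2.65 elsewhere. Over all 10 dynamins it was 0.98 in stage C and 0.99 to 1.73 elsewhere, so hardly below stage B. Outside chromosome 1, the 12 ARFs stood at 1.53 in stage C and 2.23 to 2.58 elsewhere, and the 6 dynamins at 0.71 and 0.95 to 1.16. Coatomer (1.42 against 1.34 to 1.57) and adaptor subunits (1.32 against 1.15 to 1.42) were not narrowest there by any such margin. These spreads describe genes of unlike length on an RPM scale, the same genes in each stage.

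A5D (AT2G31680), the class A gene with the highest mean, had 33.0, 66.1, 39.8, 90.8 and 66.7 RPM in stages A to E, lowest in the youngest leaf. It rose 2.28-fold (2.07 to 2.52) in stage D against stage C. A2B (AT1G07410) had 40.6, 48.9, 61.5, 45 and 51.0 RPM and A5B (AT3G07410) had 35.9, 53.0, 56.8, 56.2 and 54.8 RPM, both without a call in the 6 comparisons; this pair was picked after the values had been seen. RAB GTPase 11C (AT1G09630) had 11.9, 24.7, 58.9, 19.4 and 17.8 RPM, 2.38-fold (2.11 to 2.69) higher in stage C than in stage B.

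**Figure D2:**
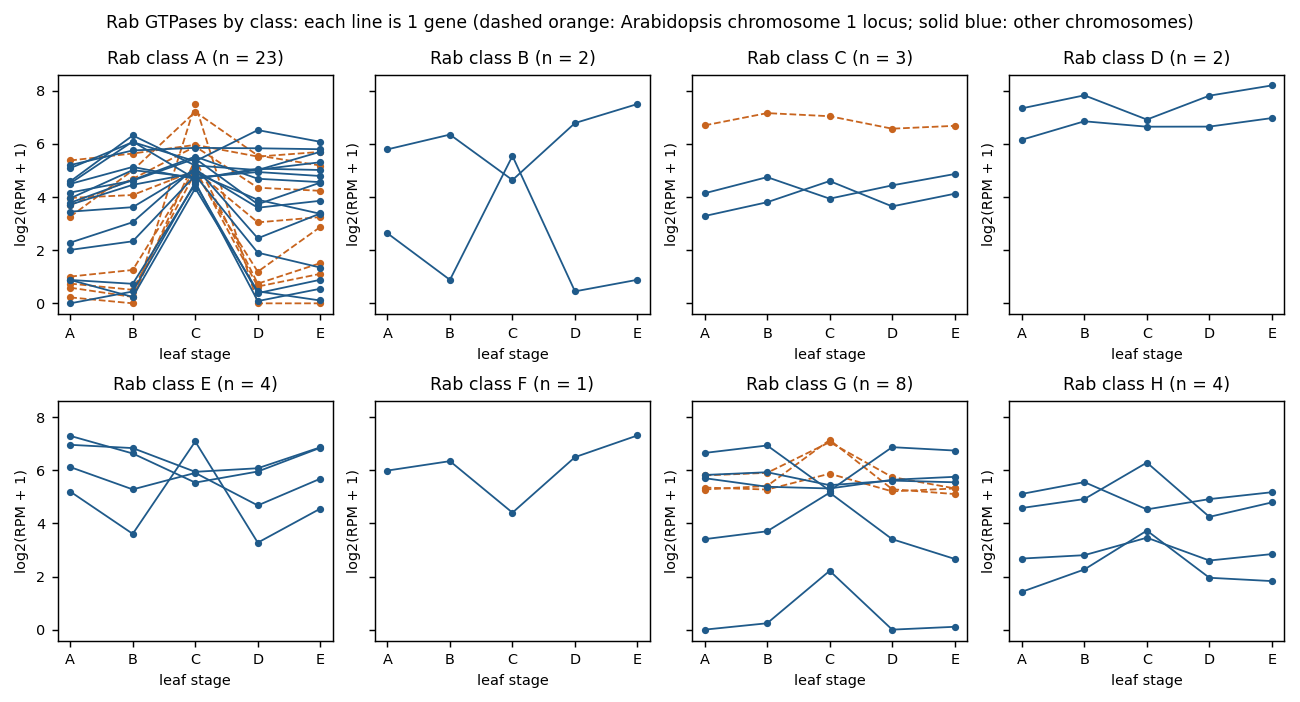
Level of each Rab GTPase (log2(RPM + 1), vertical axis) in leaf stages A to E, in 1 panel per Rab class and with 1 library per stage; each line is 1 gene, dashed orange for Arabidopsis chromosome 1 loci and solid blue for others. The class A genes fan out in 4 stages and converge in stage C, whose lowest class A gene was at 19.1 RPM.

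Several Rab GTPases were under 5 RPM in every stage but stage C. Of 9 Rab GTPases under 5 RPM in stages A, B, D and E, 8 reached 5 RPM in stage C, and the same was true of 4 of 4 ARFs. Over all members the count was 14 of 18 (77.8%), and over all genes 894 of 3618 (24.7%). Without chromosome 1 loci these counts were 10 of 14 (71.4%) and 520 of 2586 (20.1%). RAB GTPase homolog A3 (AT1G01200) had 0.168, 0, 179, 0 and 0 RPM in stages A to E. Against the floor of 3 reads per library it was at least 987-fold higher in stage C than in stage B, and at least 975-fold lower in stage D than in stage C. A6B (AT1G18200) had 0.505, 0.181, 41.8, 0.672 and 1.85 RPM, a ratio of 231 (78.5 to 1122) in stage C over the 3 reads of stage B. A4C (AT5G47960), on chromosome 5, had 0.842, 0.181, 19.1, 0.367 and 0.0772 RPM, a ratio of 105 (35.7 to 515).

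A1H (AT2G33870), A1E (AT4G18430) and A4D (AT3G12160), on chromosomes 2, 4 and 3, had 22.5, 21.6 and 27.1 RPM in stage C and no more than 4.05 RPM in any other stage. A4D is known in Arabidopsis for its role in pollen. A6A (AT1G73640) had 0.673, 0.423, 29.3, 1.28 and 6.33 RPM. It was the Rab GTPase with the largest later rise, 4.94-fold (3.03 to 8.40) in stage E against stage D, and it stood 9.41-fold (3.54 to 35.3) higher in stage E than in stage A. With a pseudocount of 5 neither of these A6A calls was made.

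The other Rab classes were small and their members often went separate ways. Class B, the Rab2-like class of traffic between endoplasmic reticulum and Golgi, had a pair of genes that mirrored each other. B1C (AT4G17170) stood at 54.6, 80.7, 23.9, 109.4 and 180.4 RPM in stages A to E, and rose 3.31-fold (2.94 to 3.73) in stage E against stage A. B1A (AT4G17160) stood at 5.22, 0.846, 45.8, 0.367 and 0.850 RPM, highest in stage C, where B1C was lowest. It fell 6.17-fold (3.19 to 12.6) in stage B against stage A, a call not made with a pseudocount of 5, and 125-fold (57.1 to 342) in stage D against stage C.

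Class D, the Rab1-like class of traffic from endoplasmic reticulum to Golgi, summed to 231, 341, 219, 324 and 418 RPM. Its member with the higher mean, RAB GTPase homolog 1A (AT5G47200), had 161, 226, 119.9, 224 and 294 RPM, and its differences did not meet the rule in any of the 6 comparisons. RAB homolog 1 (AT5G45130), the only member of class F and in Arabidopsis the endosomal Rab5-type protein RHA1, had 62.5, 80.1, 20.2, 89.1 and 158 RPM. It fell 3.98-fold (3.50 to 4.53) in stage C against stage B, rose 4.42-fold (3.89 to 5.03) in stage D against stage C, and was 2.52-fold (2.26 to 2.83) higher in stage E than in stage A. Both B1C and RAB homolog 1 were thus lowest in stage C and highest in the mature leaf.

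Class E, the Rab8-like class that in Arabidopsis carries cargo from the Golgi to the plasma membrane, ran the other way over development. Its 4 genes summed to 383, 260.1, 299, 161 and 302 RPM, and 4 of 4 lay below their stage A level in stage E, with 0 calls. The share of all genes below their stage A level is not given. RAB GTPase homolog 8 (AT3G53610) had 156, 98.1, 45.4, 60.9 and 114 RPM. E1E (AT3G09900) had 35.7, 11.2, 134.6, 8.68 and 22.5 RPM, falling 3.19-fold (2.61 to 3.91) in stage B against stage A and rising 12-fold (10.4 to 14.1) in stage C against stage B.

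Class G, the Rab7-like class of the vacuole, summed to 348, 372, 486, 349 and 321 RPM, highest in stage C. Without its chromosome 1 loci it summed to 216, 234, 156, 222 and 210.0 RPM, lowest in stage C. RAB GTPase homolog G3F (AT3G18820) had 99.5, 121, 36.6, 116 and 106 RPM, while its relatives G3E (AT1G49300) and G3B (AT1G22740), both on chromosome 1, had 140.1 and 132 RPM in stage C against 41.5 and 58.8 RPM in stage B. No class G gene was called between stages other than C, except that scaling called RAB GTPase homolog 7A (AT2G21880) lower in stage E than in stage D, at 5.33 RPM against 9.59 RPM. Class H, Rab6-like proteins of the Golgi, summed to 63.5, 84.9, 121, 55.0 and 70.5 RPM, and H1D (AT2G22290), with 22.9, 29.2, 77.1, 18 and 26.6 RPM, had the highest mean of the 4. Class C, Rab18-like, summed to 128, 181, 169, 127 and 146.3 RPM, of which RAB GTPASE HOMOLOG B18 (AT1G43890) held 103, 142, 131, 94.3 and 102 RPM.

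By stage, 28 of the 46 Rab GTPases that reached 5 RPM had their highest level in stage C, 8 in stage B, 6 in stage E, 3 in stage A and 1 in stage D. Of the 28, 8 reached 5 RPM in stage C alone, so the minimum itself fixed their highest stage. Scaling kept the count of 28 for stage C but turned the order of stages B and D, with 3 highest in stage B, 8 in stage D, 4 in stage E and 3 in stage A. With stage C left out, 38 reached 5 RPM, and 16 of these were highest in stage B, 12 in stage E, 6 in stage A and 4 in stage D. Across all 142 members that reached 5 RPM, 35 were highest in stage A, 24 in B, 51 in C, 4 in D and 28 in E, whereas the counts over all 15603 such genes were 3361, 2737, 3718, 1753 and 4034. The stage C counts include 14 members and 894 of all genes that reached 5 RPM in stage C alone. After scaling the members' counts were 39, 10, 58, 15 and 20, and those of all genes 3823, 1633, 4348, 2749 and 3050. Without chromosome 1 loci and unscaled, the counts of 112 members were 28, 22, 33, 4 and 25. Stage C then held 29.5% of the members, against 35.9% with chromosome 1 and 23.8% of all genes. On chromosome 1, 18 of 30 members were highest in stage C. The Rab GTPases are not given without chromosome 1 here.

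RAB GTPase homolog E1B, the plastid elongation factor in Arabidopsis, was highest in stage D. Of the 46 Rab GTPases that reached 5 RPM, 1 was highest there, namely A5D, which was also lowest in stage A. After scaling 8 of the 46 were highest in stage D. E1B stood at 211, 762, 841, 1446 and 692 RPM in stages A to E, lowest in the undifferentiated leaf. It rose 3.60-fold (3.40 to 3.82) in stage B against stage A and fell 2.09-fold (2.04 to 2.14) in stage E against stage D. The 19 light-harvesting genes, which also serve the plastid, summed to 2737, 7029, 41373, 34848 and 3484 RPM.

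The regulators of Rab GTPases had their lowest sums in stages C and D. In stage E against stage D, 7 of 32 (21.9%) rose and 0 fell, beside 13.1% and 6.65% of all genes. Values above those of stage D were found in 28 of 32 regulators (87.5%) and in 64.7% of all genes. After scaling 1 of the 7 calls, a Rab-GAP (AT3G02460), was left. RAB GDP dissociation inhibitor 2 (GDI 2, AT3G59920), which extracts Rab GTPases from membranes for reuse, had 521, 355, 116, 173 and 378 RPM in stages A to E. It fell 3.05-fold (2.88 to 3.22) in stage C against stage B and rose 2.19-fold (2.09 to 2.29) in stage E against stage D. A further protein of the GDI family (AT5G09550) had 97.5, 61.9, 99.4, 32.9 and 59.5 RPM. Together they summed to 206 RPM in stage D, against 619 RPM in stage A, which was 3.01-fold lower (2.87 to 3.15).

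The 5 proteins that attach the prenyl anchor of Rab GTPases, subunits of Rab geranylgeranyl transferase (RGGT) and the Rab escort protein, summed to 261, 207, 123, 105 and 203 RPM. All 5 had values below stage B in stage D and above stage D in stage E. Over all genes the median differences had the same directions. RGGT alpha subunit 2 (AT5G41820) had 23.4, 6.70, 1.68, 4.70 and 11.1 RPM. It fell 3.49-fold (2.70 to 4.52) in stage B against stage A and was 2.12-fold (1.67 to 2.69) lower in stage E than in stage A, a call made neither with a pseudocount of 5 nor by the count-based rule. The beta subunit AT5G12210 had 76.6, 73.9, 16.9, 38.4 and 62.9 RPM.

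The 21 Rab-GAPs, which speed the hydrolysis of GTP and so switch Rab GTPases off, summed to 690.0, 656, 564, 589 and 935 RPM. In stage E against stage A 3 (14.3%) rose and 0 fell, a share of rises below the 18.6% of all genes. The 3 were AT2G19240, with 17.2, 21.1, 51.6, 38.6 and 53.8 RPM and a ratio of 3.13 (2.54 to 3.89), AT4G29950, with 49.0, 48.3, 49.2, 92.4 and 137 RPM and a ratio of 2.79 (2.46 to 3.17), and AT5G57210, with 21.7, 23.0, 15.5, 42.4 and 55.3 RPM and a ratio of 2.55 (2.11 to 3.10). All 3 were also called after scaling.

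Other Rab-GAPs were low in stage C. AT3G55020 had 104, 104, 16.3, 84.5 and 147 RPM and AT4G13730 had 88.6, 64.6, 11.3, 53.2 and 116 RPM. Their stage C levels were 6.37-fold (5.56 to 7.34) and 5.73-fold (4.85 to 6.81) below stage B. The Rab-GAPs on chromosome 2, by contrast, were higher in stage C than in stage B in 6 of 6 cases, 5 of them called. Over all genes 15.3% rose there, and the share for chromosome 2 is not given. This subset was picked after the values had been seen. AT2G37290, for example, had 15.3, 18.4, 66.0, 14.7 and 19.8 RPM. The 4 prenylated Rab acceptors, membrane proteins that bind prenylated Rab GTPases, stayed low and summed to between 10.7 and 17.4 RPM.

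ARFs were called mainly in stage C. Of 15, 6 rose and 4 fell in stage C against stage B, beside 15.3% and 23% of all genes. In stage D against stage C, 2 rose and 8 fell, beside 17.4% and 19.5%. In stage D against stage B 0 were called, where 10.5% of all genes rose and 19.5% fell. ARF A1F (AT1G10630) had 49.0, 52.1, 529.8, 43.0 and 67.9 RPM in stages A to E, 10.2-fold (9.48 to 10.9) higher in stage C than in stage B. It held 36.0% of the class sum there, which was 1471 RPM in stage C against 903 RPM in stage B, and 665 RPM against 775 RPM without the 3 chromosome 1 loci. ARF D1B (AT1G02430) had 0, 0, 63.6, 0 and 0 RPM, at least 351-fold higher in stage C than in stage B against the floor. ARF-like A1B (AT3G49860), on chromosome 3, had 1.52, 0.121, 124, 0.0611 and 0.232 RPM. Its ratio of stage C over the 2 reads of stage B was 1029.7 (285 to 8509).

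Outside stage C, ARF B1B and ARF B1C were at their highest in the mature leaf. ARF B1B (AT5G17060) had 29.1, 25.4, 8.89, 18 and 60.2 RPM, and rose 3.34-fold (2.92 to 3.83) in stage E against stage D. ARF B1C (AT3G03120) had 20.9, 14.2, 26.7, 10.8 and 33.6 RPM, and rose 3.11-fold (2.60 to 3.72). These rises were called after scaling too. ARF A1E (AT3G62290) had 71.9, 155, 126, 101 and 93.5 RPM, and its rise of 2.16-fold (1.95 to 2.40) in stage B against stage A was lost with scaling.

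COPI coatomer was at its highest in the undifferentiated leaf. Of 10 subunits, 7 had their highest level in stage A, 1 in stage B and 2 in stage C, and 8 in stage A once stage C was left out. After scaling 5 were highest in stage A, 1 in stage B and 4 in stage C. In stage E against stage A, 10 of 10 had lower values, of which 2 met the rule, and after scaling these were again 2. Over all genes 13.7% fell there, and 15.6% after scaling. These are shares of calls, and the share of all genes with merely lower values is not given. Coatomer gamma-2 (AT4G34450) had 986, 530.3, 373, 298 and 411 RPM in stages A to E, a steady decline to stage D. It fell 2.40-fold (2.31 to 2.49) in stage E against stage A. The epsilon subunit AT2G34840 had 102, 53.2, 39.5, 27.1 and 31.9 RPM, falling 3.18-fold (2.80 to 3.62). The delta subunit (AT5G05010) had 342, 411, 234, 275 and 292 RPM, with 0 calls.

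The coat subunits shared a low level in stage D. Of the 24 COPI, Sec23/Sec24 and clathrin genes, 24 had lower values in stage D than in stage B and 24 had higher values in stage E than in stage D. Only 2 of the 24 met the rule in the first of these comparisons, a Sec23/Sec24 protein (AT5G43670) and a clathrin light chain (AT3G51890, not after scaling), and 4 did in the second. Of all genes, 19.5% fell in the first and 13.1% rose in the second. All genes had a median of -0.29 and 0.28 in the same 2 comparisons, the same directions as the coats. With scaling, where all genes centre on 0.01 and 0.00, the medians were -0.44 and 0.05 for COPI, -0.30 and 0.22 for Sec23/Sec24, and -0.36 and 0.49 for clathrin chains. The counts of 24 are of unscaled values, lack the matching shares of all genes, and did not hold in full after scaling. The delta subunit, at 292 RPM in stage E against 275 RPM in stage D, turned lower in stage E. AT3G23660, at 44.9 RPM in stage D against 52.5 RPM in stage B, turned higher in stage D.

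Among the Sec23/Sec24 proteins, AT3G07100 had 435, 336, 201, 204 and 393 RPM and AT4G32640 had 308, 243, 65.4, 149 and 317 RPM in stages A to E. Both were low in stages C and D and near their stage A level in stage E. AT4G32640 fell 3.71-fold (3.45 to 3.99) in stage C against stage B and rose 2.12-fold (2.02 to 2.23) in stage E against stage D, a call not made after scaling. AT5G43670 had 49.8, 34.1, 11.2, 12.3 and 26.9 RPM, and its fall of 2.76-fold (2.35 to 3.26) in stage D against stage B was called with scaling as well. AT1G05520, the sole chromosome 1 locus of the 9, was the sole one to rise in stage C against stage B, with 115 RPM against 42.8 RPM.

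Clathrin heavy and light chains parted in the mature leaf. The 2 heavy chains, which build the legs of the clathrin cage, summed to 1805, 1485, 1222, 871 and 1049 RPM, while the 3 light chains, which bind and regulate them, summed to 142, 149, 67.1, 89.3 and 186 RPM. The heavy chain AT3G08530 had 1021, 765, 900.0, 452 and 541 RPM and AT3G11130 had 783, 720.0, 322, 418 and 508 RPM, lower in stage E than in stage A for both and without a call, though scaling called AT3G08530. All 3 light chains were at their highest in stage E, and 2 of 3 after scaling, with the other highest in stage A. Light chain AT2G40060 had 10.1, 8.40, 1.47, 5.99 and 22.6 RPM, AT3G51890 had 30.8, 29.0, 13.8, 11.4 and 32.8 RPM, and AT2G20760 had 101, 112, 51.8, 71.9 and 131 RPM. The rises in stage E against stage D were 3.78-fold (3.0 to 4.80) for AT2G40060 and 2.88-fold (2.42 to 3.44) for AT3G51890. The scaled values gave both calls too.

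Adaptor subunits, which link clathrin to cargo and membrane, changed little outside stage C. Of 17, 1 rose and 0 fell in stage E against stage A, beside 18.6% and 13.7% of all genes. It was the adaptin-ear-binding coat-associated protein NECAP-1 (AT3G58600), known as an endocytic accessory protein in mammals, with 35.4, 63.1, 58.4, 94.8 and 153 RPM, a rise of 4.34-fold (3.76 to 5.02). The adaptor small chains AT3G50860 and AT4G35410 had 82.3 and 148 RPM in stage E against 39.8 and 83.6 RPM in stage D, and the first of them met the rule at 2.07-fold (1.88 to 2.29), though not after scaling. Alpha-adaptin (AT5G22770), part of the adaptor complex at the plasma membrane, had 204, 223, 200.2, 131 and 181 RPM with 0 calls.

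**Figure D3:**
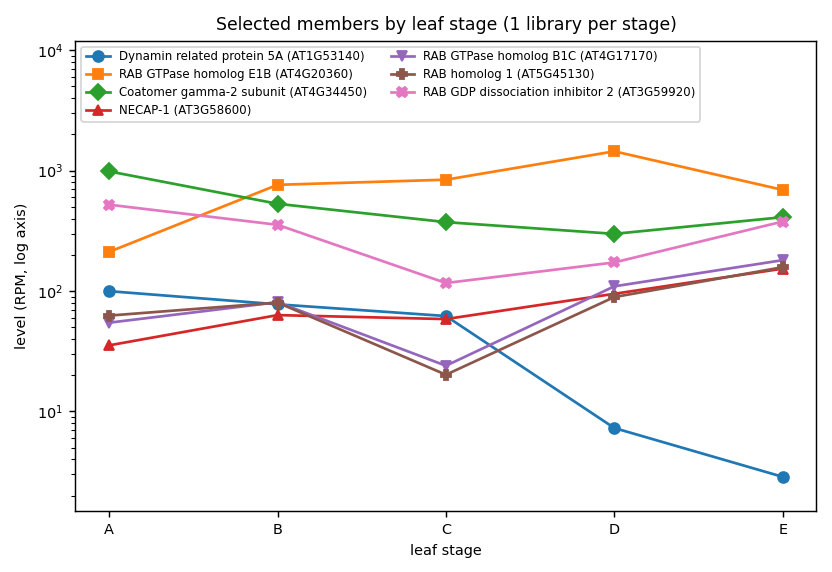
Levels (RPM, log axis) of 7 members in leaf stages A to E, with 1 library per stage. Dynamin related protein 5A falls to 2.86 RPM in stage E, coatomer gamma-2 declines to 298 RPM in stage D, and NECAP-1, RAB GTPase homolog B1C and RAB homolog 1 end between 153 and 180.4 RPM, their highest levels.

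Dynamin related protein 5A (AT1G53140), which in Arabidopsis acts in cytokinesis, showed the largest fall of any member over development. It had 99.7, 77.5, 61.9, 7.27 and 2.86 RPM in stages A to E. The level was 10.7-fold (8.83 to 13) lower in stage D than in stage B and 34.9-fold (25.0 to 50.0) lower in stage E than in stage A, both also with scaling. The 20 marker genes of dividing cells (minichromosome maintenance proteins and B-type cyclins) summed to 5878, 4401, 1924, 345 and 130 RPM, with 1 of 20 at 0 reads in stage E. Their part in the dynamin result was not tested.

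The other dynamins differed less between stages. Dynamin-like protein AT5G42080, in Arabidopsis a dynamin of endocytosis and the cell plate, had 234, 213, 79.2, 92.7 and 115 RPM, and fell 2.03-fold (1.88 to 2.18) in stage E against stage A, just past the rule. This call was made neither with a pseudocount of 5 nor by the count-based rule. DYNAMIN-like 1B (AT3G61760) had 204, 282, 137, 110.0 and 120.5 RPM and DYNAMIN-like 1C (AT1G14830) had 308, 262, 409, 144 and 180.1 RPM. Of the 10 dynamins, 9 had lower values in stage E than in stage A and 10 had lower values in stage D than in stage B, with 2 and 3 calls, and 2 and 1 after scaling. Over all genes 13.7% and 19.5% fell in these comparisons, and 15.6% and 11.5% after scaling. These shares are of calls and do not match the counts of merely lower values. DYNAMIN-like 1D (AT2G44590) had 28.8, 28.3, 152, 17.9 and 24.8 RPM and was 5.38-fold (4.86 to 5.95) higher in stage C than in stage B.

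The direction of a member in stage C went with the chromosome of its paired locus. Called above both neighbouring stages were 34 of 146 members (23.3%), beside 10.7% of all genes, and called below both were 13 (8.90%), beside 10% of all genes. On chromosome 1 these counts were 14 and 0 of 30 members, on chromosome 2 they were 9 and 1 of 23, on chromosome 3 they were 6 and 3 of 34, on chromosome 4 they were 2 and 5 of 26, and on chromosome 5 they were 3 and 4 of 33. The median log2 difference of stage C from the mean of stages B and D was 1.10, 0.63, -0.28, -0.31 and -0.55 over the members of chromosomes 1 to 5, beside 0.22, -0.03, -0.27, -0.47 and -0.62 over all genes. Rab GTPases outside chromosome 1 were called above both neighbours in 11 of 35 cases and below both in 3. For all genes such calls are not given by chromosome. How far these counts differ from those of other genes on the same chromosomes is therefore not shown.

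**Figure D4:**
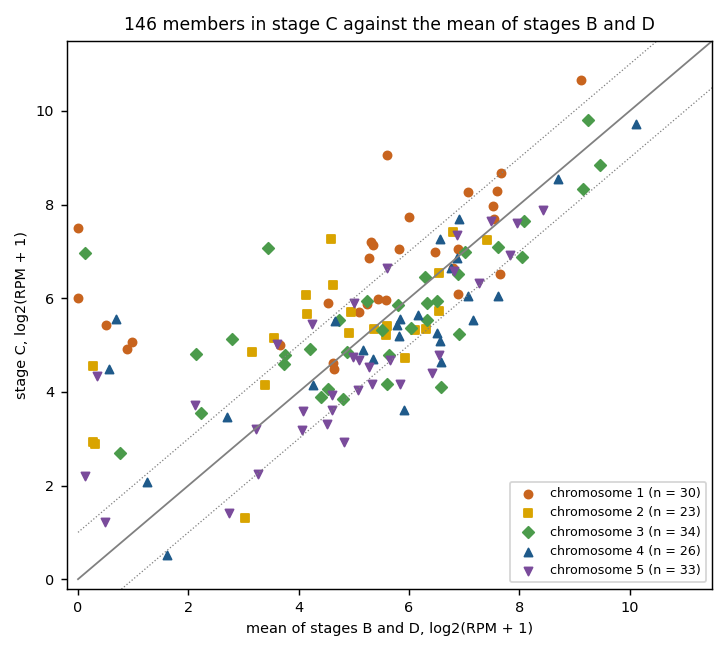
Level of each of the 146 members in stage C (vertical axis) against the mean of stages B and D (horizontal axis), both as log2(RPM + 1), with colour and marker for the Arabidopsis chromosome of the paired locus; the solid line is equality and dotted lines lie 1 log2 unit away. Chromosome 1 loci lie mostly above the line (median difference 1.10) and chromosome 5 loci mostly below it (median difference -0.55). Of the 18 members under 5 RPM in stages A, B, D and E, 14 reached 5 RPM in stage C. Prenylated Rab acceptor 1.H (AT4G27540), another of the 18, lies below the line.

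In 5 coat subunits with a pair of loci, the ratio of the loci was largest in stage C. These pairs were picked after their values had been seen. Both loci of coatomer beta lie on chromosome 4 and both of the clathrin heavy chain on chromosome 3, so their ratios do not bear on the chromosome. For coatomer beta, AT4G31480 stood to AT4G31490, its neighbour by number, at a ratio of 0.763, 1.04, 4.07, 1.02 and 1.02 in stages A to E. For coatomer beta', AT1G52360 stood to AT3G15980 at 0.756, 0.788, 3.52, 0.804 and 0.777. For the clathrin heavy chain, AT3G08530 stood to AT3G11130 at 1.30, 1.06, 2.80, 1.08 and 1.07. Coatomer alpha and epsilon gave 2.07 and 3.21 in stage C, and between 0.922 and 1.21 and between 1.25 and 2.41 in the other stages. In all 5 pairs the locus with the lower number had its largest share in stage C.

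The sums of the pairs took separate courses. Coatomer epsilon summed to 169, 166 and 86.6 RPM in stages B, C and D, a ratio of 0.981 (0.929 to 1.04) for stage C over stage B and a level 1.92-fold lower (1.79 to 2.05) in stage D than in stage C. Coatomer alpha summed to 469, 460.0 and 253 RPM, 1.82-fold lower (1.75 to 1.89) in stage D than in stage C. Coatomer beta summed to 235, 190 and 131 RPM, coatomer beta' to 1486, 2066 and 1028 RPM, and the clathrin heavy chains to 1485, 1222 and 871 RPM. The AP-1 type medium subunits also parted in stage C, where AT1G10730 had 307 RPM against 144 RPM in stage B and AT1G60780 had 91.1 RPM against 232 RPM. How reads matching both loci were counted was not given in the sources used here, and its part in these values was not tested.

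**Figure D5:**
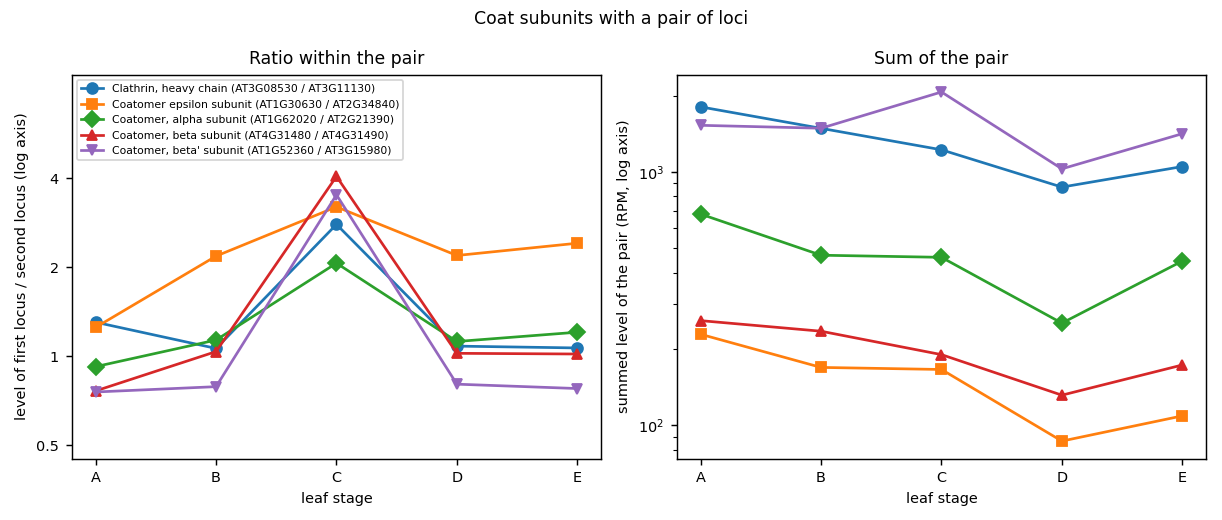
Ratio of the first to the second locus (left, log axis) and summed level in RPM (right, log axis) of 5 coat subunits that each have a pair of loci, in leaf stages A to E with 1 library per stage. All 5 ratios are largest in stage C, up to 4.07 for coatomer beta, and the sum of coatomer epsilon is 169, 166 and 86.6 RPM in stages B, C and D.

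Other genes of membrane traffic, taken by words in their descriptions, were counted in the same way. The shares of all genes that rose and fell were 15.3% and 23% in stage C against stage B, 19.5% for falls in stage D against stage B, and 18.6% and 13.7% in stage E against stage A. Of 91 SNARE and exocyst genes, which fuse and tether vesicles, 6 rose and 22 fell in stage C against stage B, and 11 rose and 3 fell in stage E against stage A; 22 of 91 is 24.2%, near the share of all genes. Of 61 genes of vacuolar sorting, retromer and ESCRT, 8 rose and 12 fell in stage C against stage B, and 13 rose and 3 fell in stage E against stage A. The median log2 difference in stage C against stage B was -0.44 for the SNARE and exocyst list and -0.28 for the vacuolar list, beside 0.80 for the 47 Rab GTPases and -0.24 for all genes. Of 18 further genes of export from the endoplasmic reticulum, 4 fell and 0 rose in stage D against stage B. Of 26 ENTH, ANTH and VHS proteins, which act as further clathrin adaptors, 3 rose and 0 fell in stage E against stage A. The 15 Ras-related small GTP-binding proteins had 1 rise and 0 falls there, and the 19 ARF regulators had 1 of each.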

How the data were processed

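Poly(A) RNA of 5 leaf stages was analysed, 1 library and 1 value column per stage; 0 value columns were without a sample. Per the file headers the values are RPKM, but the deposited values behave as RPM: 100% were whole multiples of 1 step per stage within 0.001 reads, which gave the reads behind each value. Not given in the sources used here were aligner, assembly, strand handling and treatment of shared reads. The processed table pairs each gene with 1 of 18327 Arabidopsis loci. Differences were computed on log2(RPM + 1), which understates the change of low genes, over all 18165 genes with a stage at 1 RPM or more; all 146 members passed. Counting intervals are exact 95% (Clopper-Pearson) intervals on the recovered reads. A count-based call required the whole interval at 2-fold or more. With 1 sample per stage no count model was fitted. The rule for naming genes took the 5 called members with the largest rise and fall per comparison, the member of highest mean and of widest range per role class or Rab class, and members 10 times higher in 1 stage than in the next: 53 members, of which the text names a part; others named were chosen after their values were seen. Members, lists and comparisons were chosen with earlier results of these data known. Roles were assigned by hand from descriptions. Alternatives were pseudocounts (0.1, 5), other minima for the higher stage (none, 20 RPM), median-of-ratios scaling over 17206 genes, and leaving out chromosome 1 loci or stage C. Computations used Python 3.11.15, numpy 2.4.6, pandas 2.3.3, scipy 1.17.1 and matplotlib 3.10.9, and were tested on simulated data.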

Additional observations from a re-analysis of the deposited data

How the results depend on the processing

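Of the 12 counts of members called higher or lower in 6 comparisons, 12 stayed within 1.5 times with a pseudocount of 0.1 and 12 with no minimum for the higher stage. Median-of-ratios scaling moved the members lower in stage B against stage A to 5 and in stage C against stage B to 23, those higher in stage E against stage D to 6, and those higher and lower in stage D against stage B to 4 and 2; the cause was not tested. For stage E against stage D the members higher were 10 with a pseudocount of 5 and 10 by the count-based call, and those lower were 1 with a pseudocount of 5, 1 at 20 RPM, 1 by the count-based call and 1 without chromosome 1 loci. The members lower in stage E against stage A were 3 with a pseudocount of 5. Without chromosome 1 loci, an alternative added after the values had been seen, fewer members entered by construction: 21 were higher in stage C against stage B and 30 lower in stage D against stage C. The members highest in stage B became 10 with scaling, and those highest in stage D became 15 with scaling and 7 without stage C, both added after the values had been seen. Of 50 calls of named members, 46 held with scaling, 50 with a pseudocount of 0.1 and 44 with a pseudocount of 5, and 0 changed direction. The smaller stage A library, with 5939374 reads, limits ratios of genes near 0.505 RPM. No paired analysis was possible because the labels give 1 sample per stage and no replicate numbers, and for the same reason no replicate could be left out.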
